A study of Mus musculus with 16 samples.

Results

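The elastic fiber and microfibril genes were followed as a fixed set of 10 members, taken by symbol: Eln, Fbn1, Fbn2, Fbln1, Fbln2, Fbln5, Efemp2, Emilin1, Mfap4 and Mfap5. They are 10 of the 55573 genes in the count table, all 10 had counts, and all 10 passed the filter on low counts that left 19955 genes for testing. Ventricular RNA came from 16 male mice, 4 in each of 4 groups. Every mouse carried floxed Trbp alleles (Trbp-fl/fl) and the MerCreMer transgene (MCM), a tamoxifen-inducible Cre recombinase that the alpha-MHC promoter expresses in cardiomyocytes. Trbp-cKO mice were injected with tamoxifen (30 mg/kg) once daily over 5 days when 4 weeks old, whereas control mice were given corn oil. Each genotype underwent sham surgery or TAC, a narrowing of the aorta that overloads the left ventricle, and ventricles were taken about 8 weeks later, at 16 weeks of age. Deletion of Trbp, tamoxifen and active Cre thus coincide in the Trbp-cKO groups and cannot be told apart in these 16 hearts, and hearts of tamoxifen-treated mice without Cre were not analysed here. The comparisons ask how TAC alters the expression of these genes in control and in Trbp-cKO hearts, and how the deletion alters it without and with pressure overload.

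Elastic fibers give arteries, valves and the cardiac interstitium their recoil. Fibrillins assemble into microfibrils, tropoelastin is deposited on this scaffold with the help of fibulins and other microfibril-associated proteins, and lysyl oxidases then cross-link it. Microfibrils also hold latent TGF-β through the latent TGF-β-binding proteins. Fibroblasts, smooth muscle cells, valve cells and endothelial cells are the usual sources of these proteins, whereas the deletion studied here acts in cardiomyocytes.

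The total count per heart ranged from 45166994 to 68274222. The lowest count in a heart was 16 for Fbn2 and at least 408 for every other member. Counting error and the spread between mice were not separated. Expression is given as CPM, the count of a gene relative to a library size adjusted by TMM, a scaling that sets most genes equal between hearts. Tarbp2, the gene encoding Trbp, lay at 21.1 to 33.3 CPM in the 8 control hearts and at 7.14 to 11.4 CPM in the 8 Trbp-cKO hearts, with no overlap. All 6 cardiomyocyte markers were expressed in every heart, and the 3 lung markers stayed under 1 CPM in all hearts. Log2 fold changes are given with their standard error (SE) from the fit. A gene was called when edgeR's quasi-likelihood test gave a Benjamini-Hochberg adjusted p of at most 0.05 over all genes tested and the absolute log2 fold change was at least 0.8. A fold change in ventricular tissue may come from more cells of a kind or from more RNA per cell, which cannot be told apart here. Transcripts of the mitochondrial chromosome made up 38.2% and 38.8% of the counts in control TAC replicates 1 and 2, against 25.2% and 21.7% in replicates 3 and 4. Replicates 1 and 2 were also above replicates 3 and 4 for all 10 members. When the genes of the mitochondrial chromosome were left out before scaling, the members called were the same in every comparison, except that Fbln2 was also called in control TAC against control sham hearts.

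RefSeq start sites on GRCm38.p6, matched by symbol, were used for 6 of the 10 members. Of these 6, the 4 that were called for TAC in Trbp-cKO hearts are shown because they moved in the same direction. Eln, Fbn2, Mfap4 and Mfap5 were called in that comparison too but were not searched, so nothing is said of their start sites. Each window holds the 300 bases from 250 before to 50 after the start site on the gene's strand. Capitals mark CAGACA, the letters of a SMAD-binding element, and GGGCGG, a GC box, or their complements on the other strand (TGTCTG for the first and CCGCCC for the second). TATAAA and TGAGTCA, an AP-1 element, were also searched on both strands and matched in none of the 4, and CANNTG, an E-box, matched in all 4 and is not capitalized. The window of the fibrillin gene Fbn1 is chr2:125506389-125506688 on the minus strand, that of the fibulin gene Fbln2 chr6:91212514-91212813 on the plus strand, that of the fibulin gene Fbln5 chr12:101819070-101819369 on the minus strand, and that of Emilin1 chr5:30913536-30913835 on the plus strand:
Fbn1: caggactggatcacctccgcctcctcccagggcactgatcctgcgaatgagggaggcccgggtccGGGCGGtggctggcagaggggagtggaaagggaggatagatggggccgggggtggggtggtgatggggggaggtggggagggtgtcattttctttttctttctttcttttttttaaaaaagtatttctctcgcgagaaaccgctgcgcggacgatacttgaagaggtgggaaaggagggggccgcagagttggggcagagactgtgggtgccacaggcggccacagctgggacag
Fbln2: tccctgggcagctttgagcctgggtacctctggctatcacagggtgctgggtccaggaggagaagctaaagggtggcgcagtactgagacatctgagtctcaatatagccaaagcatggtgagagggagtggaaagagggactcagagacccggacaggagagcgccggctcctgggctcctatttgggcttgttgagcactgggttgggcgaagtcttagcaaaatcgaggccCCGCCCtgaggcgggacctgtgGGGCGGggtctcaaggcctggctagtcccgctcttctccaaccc
Fbln5: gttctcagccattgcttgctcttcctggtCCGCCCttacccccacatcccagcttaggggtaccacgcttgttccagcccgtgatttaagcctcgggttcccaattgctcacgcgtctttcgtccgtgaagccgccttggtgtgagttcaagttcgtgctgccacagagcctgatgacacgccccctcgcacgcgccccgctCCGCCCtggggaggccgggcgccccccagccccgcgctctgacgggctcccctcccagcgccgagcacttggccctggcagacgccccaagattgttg
Emilin1: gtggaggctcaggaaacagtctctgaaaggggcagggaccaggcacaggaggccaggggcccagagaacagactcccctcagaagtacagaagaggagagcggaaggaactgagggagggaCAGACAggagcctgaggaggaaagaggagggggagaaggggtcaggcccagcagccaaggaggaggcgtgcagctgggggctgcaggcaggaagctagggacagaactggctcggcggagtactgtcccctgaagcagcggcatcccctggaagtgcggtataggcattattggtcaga
CAGACA was found in the Emilin1 window, starting at -129 relative to the start site, and not in the other 3. A further Fbln5 start site in the table held CAGACA at -15, and both start sites of Fbln1, a member called in no comparison, held it at -175 and -234. CAGACA occurs in 21% of the 32851 promoters of this length in the table, and GGGCGG, found in the windows of Fbn1, Fbln2 and Fbln5, occurs in 35.7% of them. TATAAA occurs in 13.6%, TGAGTCA in 5.2% and CANNTG in 72.3% of all promoters. A match is a description of letters and not of a bound site.

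Per kilobase of exon, the fibulins Fbln2 and Fbln1 were the most abundant members in control sham hearts, at 16.2 ± 1.03 and 14.9 ± 1.75 CPM per kilobase (SD, n = 4). Emilin1, Fbn1, Mfap4, Mfap5 and Eln followed between 5.66 and 5.03 CPM per kilobase, a range smaller than the SD of Emilin1 (1.30) and of Mfap5 (1.06), so these 5 had no order. Fbln5 (3.30 ± 0.304) and Efemp2 (2.34 ± 0.251) came below them, and Fbn2 was far below all other members (0.118 ± 0.0235). In Trbp-cKO TAC hearts the order was different. Mfap4 (mean 55.7, from 38.4 to 93.0) and Mfap5 (mean 40.7, from 26.0 to 62.3) stood first by mean, above Fbln2 (mean 36.3, from 24.8 to 50.4) and Fbln1 (mean 24.7, from 17.6 to 28.5), although the ranges of neighbors overlapped. The 10 members together summed to 58.7 to 69.2 CPM per kilobase in the sham hearts of control mice and to 67.2 to 90.0 in those of Trbp-cKO mice. After TAC the sum was 87.8 to 173 in control mice and 144 to 317 in Trbp-cKO mice. Mfap4 and Mfap5 held 14.5% to 17.8% of this sum in control sham and 20.4% to 24.3% in Trbp-cKO sham hearts. After TAC they held 30.5% to 42.0% in control and 40.8% to 49.0% in Trbp-cKO hearts. Fbln1 and Fbln2 held 48.4% to 50.1% and 47.8% to 54.1% in the sham hearts of control and Trbp-cKO mice, and 32.2% to 43.8% and 24.8% to 33.3% in their TAC hearts. The share of Mfap4 and Mfap5 was thus larger, and that of Fbln1 and Fbln2 smaller, in every TAC heart than in every sham heart.

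**Figure D1:**
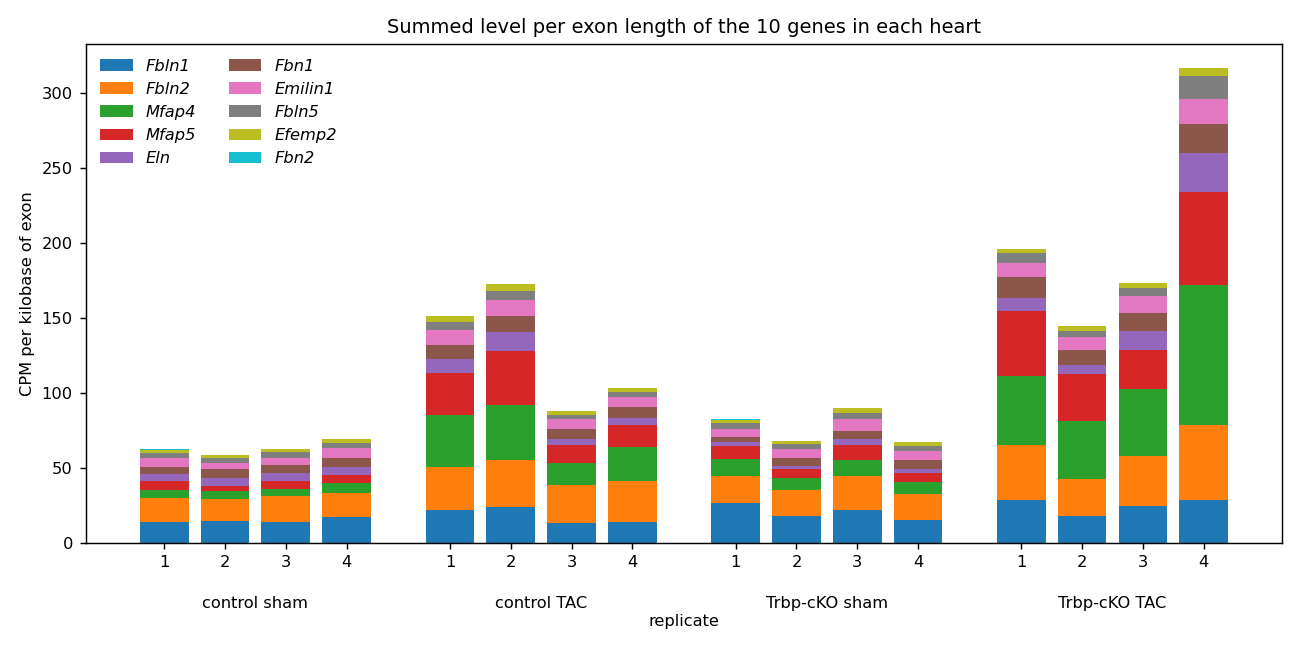
Summed level of the 10 genes in CPM per kilobase of exon (y axis, from 0) in each of the 16 hearts (x axis, replicates by group), with a colored segment for each gene. Trbp-cKO TAC replicate 4 has the highest sum, 317, and the segments of Mfap4 and Mfap5 widen after TAC in both genotypes.

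In control hearts TAC raised 2 of the 10 members, Mfap4 and Mfap5, 5.19-fold and 4.46-fold, where 2.50% of all genes were called higher. The fibulin gene Fbln2 passed the adjusted p as did 4.09% of all genes, but its log2 fold change, which rounds to 0.80, was just below the threshold. The 4 control TAC hearts lay above all control sham hearts for Fbn1, Fbln2, Mfap4 and Mfap5, or 4 of 10 members against 8.64% of all genes. The log2 fold change was above 0 for 9 of 10 members, with Fbn2 below 0, and its median over the members was 0.59 against 0.02 over all genes. An unadjusted p under 0.05 was reached by 6 members in the upward direction and by Fbn2 in the downward direction.

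In Trbp-cKO hearts TAC raised 8 of the 10 members, all except Fbln1 and Efemp2, against 3.23% of all genes called higher. Their folds ran from 1.82 for Emilin1 to 5.77 for Mfap4. The 4 TAC hearts lay above all sham hearts for 7 members, against 9.05% of all genes. The median log2 fold change of the members was 1.29, against -0.00 over all genes, and all 10 were above 0. When Trbp-cKO TAC replicate 4 was left out, 5 members were called (Eln, Fbn1, Fbn2, Mfap4 and Mfap5), while Fbln2, Fbln5 and Emilin1 lost their call. Fbln5 also lost its call without any single Trbp-cKO sham heart, and Emilin1 without sham replicate 1, 2 or 4. Eln, Fbn1, Mfap4 and Mfap5 were called in all of 3 further fits, whereas Fbln5 lost its call with limma voom (7 members called), Fbln5 and Emilin1 with the replicate block (6 members) and Fbn2 and Fbln5 in a fit of the Trbp-cKO groups alone (6 members). With a score of clock genes as a covariate, added after the data were seen, Fbn1, Mfap4 and Mfap5 were called (3 members), while Eln (1.45, edgeR adjusted p = 0.132), Fbn2, Fbln2, Fbln5 and Emilin1 lost their calls (adjusted p from 0.0666 to 0.462 over these 5). When calls required an absolute log2 fold change of 1, Fbln2 and Emilin1 lost their calls and 6 members were called. These counts for control and Trbp-cKO hearts do not show that the TAC effects differ, which is the question of the interaction.

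Without pressure overload, the deletion lowered 1 member, Fbn2, to 0.347 of its level in control sham hearts, where 0.456% of all genes were called lower. No member was called higher by edgeR's quasi-likelihood test, as against 0.511% of all genes, and Mfap4 alone had an unadjusted p under 0.05 in that direction. All Trbp-cKO sham hearts were below all control sham hearts for Eln and Fbn2 (2 of 10 members, against 6.96% of all genes) and above them for Mfap4 (1 of 10, against 7.74%). The median log2 fold change of the members was 0.16, against 0.01 over all genes. A fit of these 2 groups alone and edgeR's exact test also called Eln lower and Mfap4 higher. DESeq2 called Fbn2 only, and limma voom called none. The call of Fbn2 was also lost with library size only, with no filter on low counts and with the replicate block. It was lost as well with the score of clock genes and whichever of its 8 hearts was left out.

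Under pressure overload, no member was called between Trbp-cKO TAC and control TAC hearts by edgeR's quasi-likelihood test, where 1.55% of all genes were called higher. All 10 log2 fold changes were above 0, from 0.11 for Efemp2 to 1.04 for Mfap4, with a median of 0.75 against -0.01 over all genes. An unadjusted p under 0.05 was reached by 5 members (Fbn1, Fbn2, Fbln5, Mfap4 and Mfap5), and Fbn1 and Mfap4 came nearest to a call with adjusted p of 0.0505 and 0.0541. Mfap4 was the only member for which the 4 Trbp-cKO TAC hearts lay above all control TAC hearts, which held for 6.12% of all genes. DESeq2 called Mfap4 (1 member), scaling by library size only called Fbn1 and Mfap4, edgeR's exact test and limma voom called none, and leaving out Trbp-cKO TAC replicate 2 called Fbn1 and Mfap4. Scaling by library size moved the median of all genes in this comparison from -0.01 to 0.13. Without Trbp-cKO TAC replicate 4 all members had a smaller value, down to -0.14 for Efemp2, 0.16 for Fbln2, 0.20 for Eln, 0.24 for Emilin1, 0.26 for Fbln5 and 0.43 for Fbn2.

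The interaction compared the TAC effect in Trbp-cKO hearts with that in control hearts, and 1 of 10 members was called, Fbn2, where 0.446% of all genes were called in this direction. This call was lost with limma voom (adjusted p = 0.0512) and with the replicate block (edgeR adjusted p = 0.0956). It was also lost with the score of clock genes as a covariate, where the interaction was 0.53, and without any of 10 hearts. An unadjusted p under 0.05 was reached by Eln, Fbn1 and Fbn2, all in the direction of a larger log2 fold change in Trbp-cKO hearts. Over the alternative settings these interactions ran down to 0.03 for Eln, 0.25 for Fbn1 and 0.53 for Fbn2. These lowest values were those with the score of clock genes. With each heart left out in turn, the interactions were at least 1.05 for Eln, 0.58 for Fbn1 and 1.96 for Fbn2. The interaction was above 0 for 8 members, and its median was 0.29 against -0.01 over all genes. For Mfap4 and Mfap5, the members with the largest TAC effects, it was 0.15 and 0.26 with standard errors of 0.42 and 0.47.

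**Figure D2:**
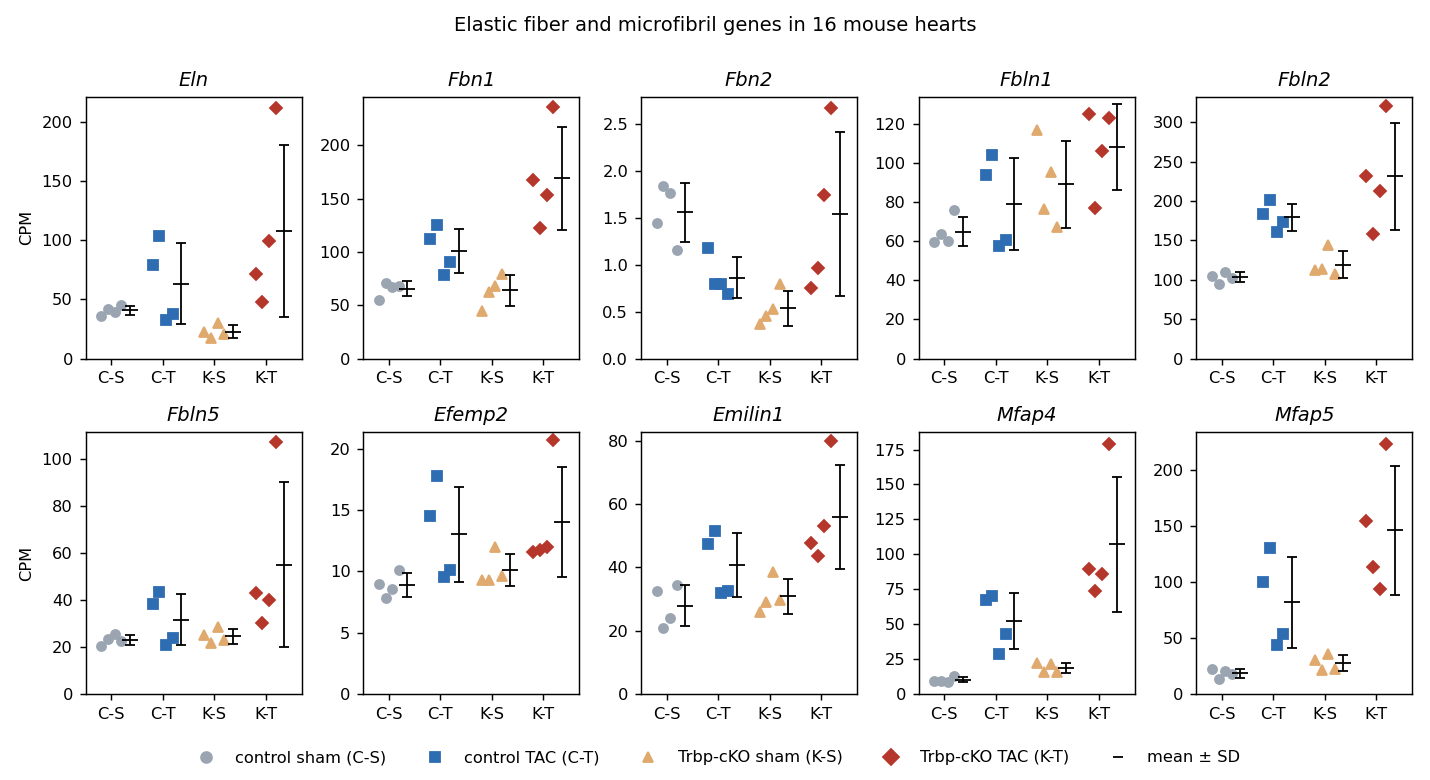
CPM of each gene (y axis from 0, a separate scale per gene) in the 16 hearts by group (x axis), with the mean and SD of each group beside its 4 hearts. For Mfap4 and Mfap5 both TAC groups lie above both sham groups, whereas Fbn2 is lowest in Trbp-cKO sham hearts.

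Eln (ENSMUSG00000029675, chr5:134702593-134747323 on the minus strand of GRCm38) encodes tropoelastin, the soluble precursor of the elastic core. Its CPM was 36.4, 41.8, 39.6 and 44.9 in control sham hearts and 22.2, 17.3, 30.3 and 20.8 in Trbp-cKO sham hearts. All 4 Trbp-cKO sham hearts were below all control sham hearts. After TAC it was 78.9, 104, 32.7 and 38.1 in control and 71.6, 47.5, 99.7 and 212 in Trbp-cKO hearts. Control TAC hearts fell into a high pair and a pair within or below the sham range, and Trbp-cKO TAC replicate 4 was the highest of all hearts. The log2 fold change for TAC was 2.25 in Trbp-cKO hearts (SE 0.43, edgeR adjusted p = 0.00315) and 0.64 in control hearts (SE 0.41, adjusted p = 0.316). For the deletion it was -0.85 in sham hearts (SE 0.41, adjusted p = 0.383, exact two-sided permutation test of CPM p = 0.0286, the smallest p that 4 against 4 hearts allow). In TAC hearts it was 0.76 (SE 0.41, adjusted p = 0.296). Without Trbp-cKO TAC replicate 4 the latter value was 0.20, and without control TAC replicate 2 the TAC effect in control hearts was 0.29. The interaction was 1.61 on the log2 scale (SE 0.58), with an unadjusted p of 0.0139 that did not pass the adjustment (edgeR adjusted p = 0.198). Over the alternative settings it ran from 0.03, with the score of clock genes as a covariate, to 1.68. With each of the 16 hearts left out it ran from 1.05 to 1.96.

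Fbn1 (ENSMUSG00000027204, chr2:125300594-125507993, minus strand) encodes fibrillin-1, the main backbone of microfibrils in the adult. It was at 55.2, 71.1, 67.5 and 68.0 CPM in control sham and 44.8, 62.7, 68.1 and 79.4 CPM in Trbp-cKO sham hearts, which overlapped. Control TAC hearts had 112, 125, 78.7 and 90.3 CPM, and Trbp-cKO TAC hearts 167, 122, 153 and 236 CPM. In each genotype every TAC heart was above every sham heart, and the Trbp-cKO TAC hearts reached the highest levels. TAC raised Fbn1 by 1.41 on the log2 scale in Trbp-cKO hearts (SE 0.21, edgeR adjusted p = 0.000573), and the value in control hearts was 0.63 (SE 0.21, adjusted p = 0.0790). Between the TAC groups the log2 fold change was 0.74 (SE 0.21, adjusted p = 0.0505), and 3 of the 4 Trbp-cKO TAC hearts lay above all control TAC hearts. Without Trbp-cKO TAC replicate 4 the latter value was 0.54 with an adjusted p of 0.100.

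Fbn2 (ENSMUSG00000024598, chr18:58008623-58210487, minus strand) encodes fibrillin-2, which is best known from microfibrils of developing tissue. Its CPM was 1.45, 1.84, 1.77 and 1.16 in control sham hearts and 0.364, 0.456, 0.527 and 0.796 in Trbp-cKO sham hearts, without overlap. After TAC it was 1.18, 0.797, 0.795 and 0.684 in control hearts and 0.758, 0.966, 1.75 and 2.68 in Trbp-cKO hearts. Control TAC hearts lay low, with only replicate 1 above the lowest control sham heart, while 3 of the 4 Trbp-cKO TAC hearts exceeded all Trbp-cKO sham hearts. The deletion lowered Fbn2 in sham hearts by a log2 fold change of -1.53 (SE 0.36, edgeR adjusted p = 0.0450). In TAC hearts the value was 0.83 (SE 0.35, adjusted p = 0.180). The log2 fold change for TAC was -0.85 in control hearts (SE 0.35, adjusted p = 0.143) and 1.51 in Trbp-cKO hearts (SE 0.36, adjusted p = 0.0141). Fbn2 was the only member whose TAC effect was called different between the genotypes, by 2.36 on the log2 scale (SE 0.50, adjusted p = 0.0364). Both calls were close to the threshold, and both were lost with the score of clock genes as a covariate. With that score the value in sham hearts was -0.08 and the interaction 0.53. The interaction also lost its call with limma voom and with the replicate block. The call in sham hearts was lost with limma voom, with the replicate block, with library size only and with no filter on low counts (adjusted p from 0.0522 to 0.0846). It was also lost whichever of its 8 hearts was left out (adjusted p from 0.0558 to 0.134), with the log2 fold change between -1.78 and -1.40. With each of the 16 hearts left out, the interaction stayed between 1.96 and 2.61 (edgeR adjusted p from 0.0263 to 0.0956). It lost its call without any of 10 of them. These were the 4 control sham hearts, control TAC replicates 2 and 3, Trbp-cKO sham replicates 1, 2 and 3 and Trbp-cKO TAC replicate 3.

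**Figure D3:**
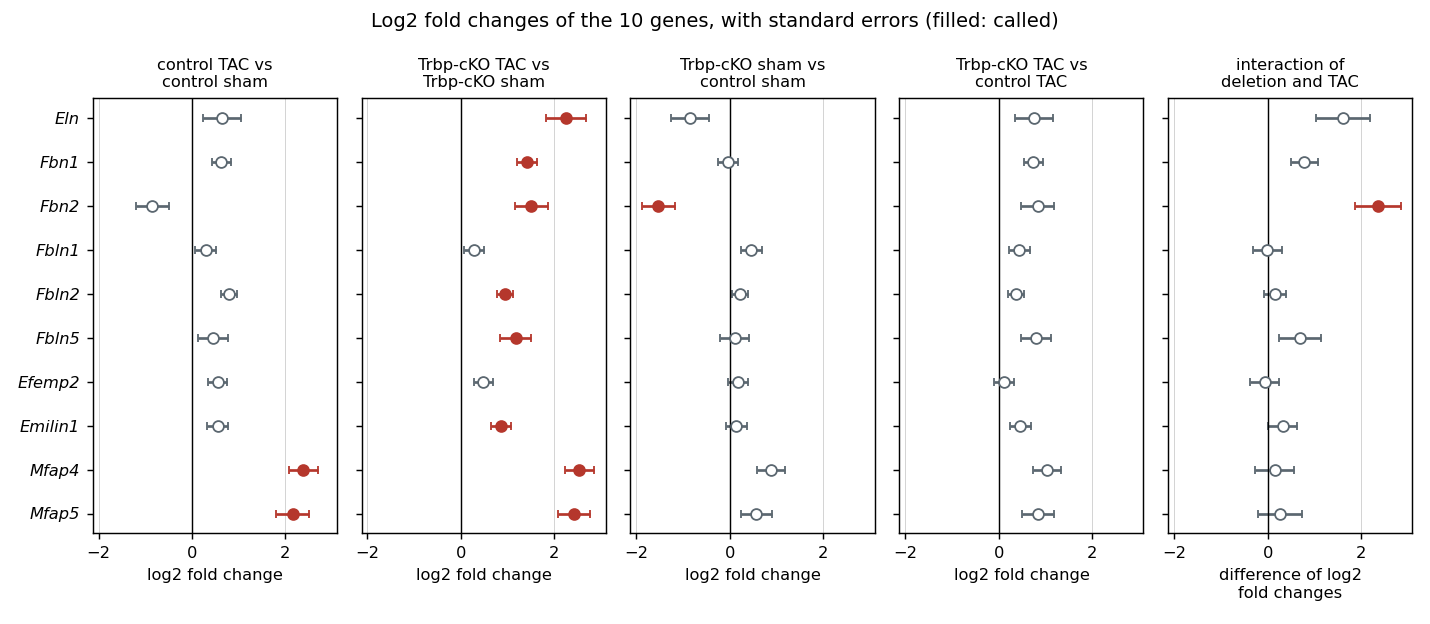
Log2 fold changes of the 10 genes (x axis) with their standard errors from edgeR's quasi-likelihood fit, in 4 comparisons and the interaction, where filled points are called genes. In Trbp-cKO hearts 8 points are filled for TAC, in control hearts 2, and Fbn2 is the only filled point for the deletion in sham hearts and for the interaction.

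The fibulins link elastin to microfibrils and basement membranes. Fbln2 (ENSMUSG00000064080, chr6:91212455-91272540, plus strand) is the fibulin of heart valves, vessels and interstitium. It was at 105, 94.5, 110 and 102 CPM in control sham and 183, 201, 161 and 173 CPM in control TAC hearts. Trbp-cKO hearts had 112, 114, 144 and 107 CPM after sham surgery and 232, 158, 213 and 321 CPM after TAC. In each genotype all TAC hearts were above all sham hearts, and in both control groups Fbln2 had the smallest spread of the members relative to its mean, with SDs of 6.35% and 9.56% of the mean. The log2 fold change for TAC was 0.80 in control (SE 0.17, edgeR adjusted p = 0.0165) and 0.95 in Trbp-cKO hearts (SE 0.17, adjusted p = 0.00239). Without Trbp-cKO TAC replicate 4 the latter was 0.75, below the threshold for a call, at an adjusted p of 0.00413. The deletion gave 0.21 in sham hearts (adjusted p = 0.676) and 0.36 in TAC hearts (adjusted p = 0.237), which was 0.16 without Trbp-cKO TAC replicate 4.

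Fbln5 (ENSMUSG00000021186, chr12:101746565-101819055, minus strand) encodes fibulin-5, which binds tropoelastin and lysyl oxidase-like enzymes and is needed for elastic fiber assembly. Sham hearts had 20.2, 23.3, 25.3 and 22.5 CPM in control and 25.0, 21.6, 28.6 and 22.8 CPM in Trbp-cKO mice. TAC hearts had 38.2, 43.3, 20.7 and 23.8 CPM in control and 43.0, 30.0, 40.0 and 107 CPM in Trbp-cKO mice. Trbp-cKO TAC replicate 4 was above all other hearts, and control TAC replicates 3 and 4 stayed within the sham range. TAC raised Fbln5 in Trbp-cKO hearts by 1.17 on the log2 scale (SE 0.33, edgeR adjusted p = 0.0332). Without Trbp-cKO TAC replicate 4 this value was 0.62 and its adjusted p 0.0988, and the call was also lost when any of the 4 Trbp-cKO sham hearts was left out. In control hearts TAC gave 0.46 (SE 0.32, adjusted p = 0.357).

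Efemp2 (ENSMUSG00000024909, chr19:5473954-5482517, plus strand), or fibulin-4, brings lysyl oxidase to tropoelastin, and Fbln1 (ENSMUSG00000006369, chr15:85205949-85286535, plus strand) encodes fibulin-1 of elastic fibers and basement membranes. These were the 2 members that were called in no comparison. Efemp2 ran from 7.85 to 10.1 CPM after sham surgery and from 9.49 to 17.8 CPM after TAC in control mice, and from 9.27 to 12.0 CPM and from 11.6 to 20.7 CPM in Trbp-cKO mice. Its log2 fold changes for TAC were 0.55 in control (adjusted p = 0.126) and 0.48 in Trbp-cKO hearts (adjusted p = 0.189). Fbln1 had 59.6, 63.6, 60.3 and 76.0 CPM in control sham hearts and 117, 76.3, 95.3 and 67.2 CPM in Trbp-cKO sham hearts, so 3 of the 4 Trbp-cKO hearts were above all control hearts. The log2 fold change was 0.46 (SE 0.22, edgeR adjusted p = 0.376). TAC gave 0.29 for Fbln1 in control (adjusted p = 0.401) and 0.28 in Trbp-cKO hearts (adjusted p = 0.517), and the interaction was -0.01 with a standard error of 0.31, nearest to 0 of all members.

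Emilin1 (ENSMUSG00000029163, chr5:30913402-30921277, plus strand) encodes a glycoprotein at the interface of elastin and microfibrils that restrains TGF-β processing. It had 32.4, 20.9, 24.1 and 34.3 CPM in control sham and 47.4, 51.5, 31.9 and 32.5 CPM in control TAC hearts, which overlapped. In Trbp-cKO mice it had 26.0, 28.9, 38.6 and 29.7 CPM after sham surgery and 47.6, 43.5, 53.2 and 79.8 CPM after TAC, without overlap. TAC raised it in Trbp-cKO hearts by 0.86 on the log2 scale (SE 0.22, edgeR adjusted p = 0.0223), and the control value was 0.55 (SE 0.22, adjusted p = 0.138). The call in Trbp-cKO hearts was lost without TAC replicate 4 (0.64, adjusted p = 0.0692) and without sham replicate 1, 2 or 4.

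Mfap4 and Mfap5 encode microfibril-associated proteins, of which the first binds elastin and fibrillin fibers and integrins and the second, also known as MAGP-2, binds fibrillins. Mfap4 (ENSMUSG00000042436, chr11:61485431-61488900, plus strand) had 9.59, 9.26, 8.69 and 12.7 CPM in sham hearts and 67.2, 69.9, 28.3 and 43.2 CPM in TAC hearts of control mice. In Trbp-cKO mice it had 22.1, 15.4, 21.2 and 15.4 CPM in sham hearts and 89.3, 73.8, 86.2 and 179 CPM in TAC hearts. The 4 groups did not overlap with one another, in the order control sham, Trbp-cKO sham, control TAC and Trbp-cKO TAC. TAC raised Mfap4 by 2.38 on the log2 scale in control (SE 0.31, edgeR adjusted p = 0.000939) and by 2.53 in Trbp-cKO hearts (SE 0.31, adjusted p = 0.000118). These 2 effects differed by 0.15 (SE 0.42, adjusted p = 0.893). The deletion gave 0.88 in sham hearts (SE 0.30, adjusted p = 0.171) and 1.04 in TAC hearts (SE 0.30, adjusted p = 0.0541), with an exact two-sided permutation p of 0.0286 in both. Without Trbp-cKO TAC replicate 4 the value in TAC hearts was 0.67 (adjusted p = 0.114).

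Mfap5 (ENSMUSG00000030116, chr6:122505845-122529290, plus strand) had 21.8, 13.2, 20.4 and 18.0 CPM in control sham and 100, 130, 43.4 and 53.7 CPM in control TAC hearts. In Trbp-cKO mice it had 30.5, 21.0, 35.8 and 21.8 CPM after sham surgery and 154, 113, 93.3 and 223 CPM after TAC. All TAC hearts were above all sham hearts of both genotypes, and the 2 sham groups overlapped, as did the 2 TAC groups. TAC raised Mfap5 by 2.16 on the log2 scale in control (SE 0.35, edgeR adjusted p = 0.00406) and by 2.42 in Trbp-cKO hearts (SE 0.35, adjusted p = 0.000438). For the deletion the values were 0.57 in sham (adjusted p = 0.505) and 0.84 in TAC hearts (adjusted p = 0.161), and the interaction was 0.26 (SE 0.47, adjusted p = 0.828). Mfap4 and Mfap5 kept their calls for TAC in both genotypes whichever heart was left out.

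Across the hearts, most members deviated together from their group means. The correlation of these deviations had a median of 0.74 over the 45 pairs of members and exceeded 0.5 for 37 pairs, as a description over 16 hearts that share libraries and groups. The highest was 0.95 for Eln and Fbln5, and the lowest was -0.01 for Fbn2 and Fbln1. Pairs of other genes were not taken for comparison, so these values are not shown to be particular to the set. Trbp-cKO TAC replicate 4 had the highest level of all 16 hearts for 9 of 10 members, and replicate 1 of that group had it for Fbln1. In control TAC, replicate 2 was highest for 9 members and replicate 3 lowest for 9. The markers of activated fibroblasts (Postn, Cthrc1, Comp, Cilp, Meox1, Fap and Ddah1, all 7 detected) moved with this. Their summed level went from 75.7 to 91.9 CPM in sham hearts to 268 to 837 CPM in TAC hearts of control mice, and from 113 to 161 CPM to 874 to 2492 CPM in Trbp-cKO mice. The highest values of both TAC groups were those of control TAC replicate 2 and Trbp-cKO TAC replicate 4. The 8 general fibroblast markers summed to 1654 to 1751 CPM without and 1839 to 2809 CPM with TAC in control mice, and to 1806 to 2449 CPM and 1850 to 3948 CPM in Trbp-cKO mice, so that the Trbp-cKO groups overlapped. The median log2 fold change of this list was 0.54 for TAC in control hearts, where only Mgp was called, and -0.07 for TAC in Trbp-cKO hearts, where Col15a1 and Mgp were called higher. The 6 markers of valve and adventitial cells summed to 67.7 to 85.4 CPM without and 139 to 270 CPM with TAC in control mice, and to 108 to 152 CPM and 235 to 288 CPM in Trbp-cKO mice. Of these 6, Pi16 and Prg4 were called higher after TAC in each genotype, and the list's median log2 fold change was 0.38 in control and -0.02 in Trbp-cKO hearts. Trbp-cKO TAC replicate 4 had the lowest sum of cardiomyocyte markers in its group, 24326 CPM against 30363 to 37652 CPM, and control TAC replicates 1 and 2 had 20450 and 16177 CPM against 36628 and 36807 CPM in replicates 3 and 4. The 6 endothelial markers summed to 649 to 756 CPM without and 633 to 1289 CPM with TAC in control mice, and to 564 to 1006 CPM and 532 to 954 CPM in Trbp-cKO mice, and none was called by edgeR in any of the 4 comparisons or the interaction. The sum of the 5 markers of atrial tissue was 542 to 1019 CPM without and 1616 to 3860 CPM with TAC in control mice, and 1009 to 1516 CPM and 10257 to 15676 CPM in Trbp-cKO mice, while 3 of the 5 stayed under 1 CPM in every heart. Nppa, the natriuretic peptide gene that loaded ventricles also express, was called higher for TAC in both genotypes and between the TAC groups, and Myl4 for TAC in Trbp-cKO hearts, between the TAC groups and in the interaction. The 5 pericyte markers summed to 950 to 1012 CPM without and 874 to 1008 CPM with TAC in control mice. In Trbp-cKO mice they summed to 832 to 1032 CPM and 671 to 760 CPM, the latter below all other groups. For TAC in Trbp-cKO hearts the median log2 fold change of this list was -0.54, with Vtn called lower. The part of these cell markers in the values of the members was not tested. The 7 smooth muscle markers summed to 427 to 570 CPM without and 300 to 362 CPM with TAC in control mice, and to 661 to 865 CPM and 544 to 983 CPM in Trbp-cKO mice, so that Trbp-cKO hearts were above control hearts without overlap after either surgery. The list's median log2 fold change was 0.03 for the deletion in sham hearts, where only Acta2 was called (higher), and -0.13 in TAC hearts, where Acta2 and Cnn1 were called higher. For TAC in Trbp-cKO hearts it was -0.02, with Tagln and Cnn1 called higher, and for TAC in control hearts 0.15, with Acta2 called lower.

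**Figure D4:**
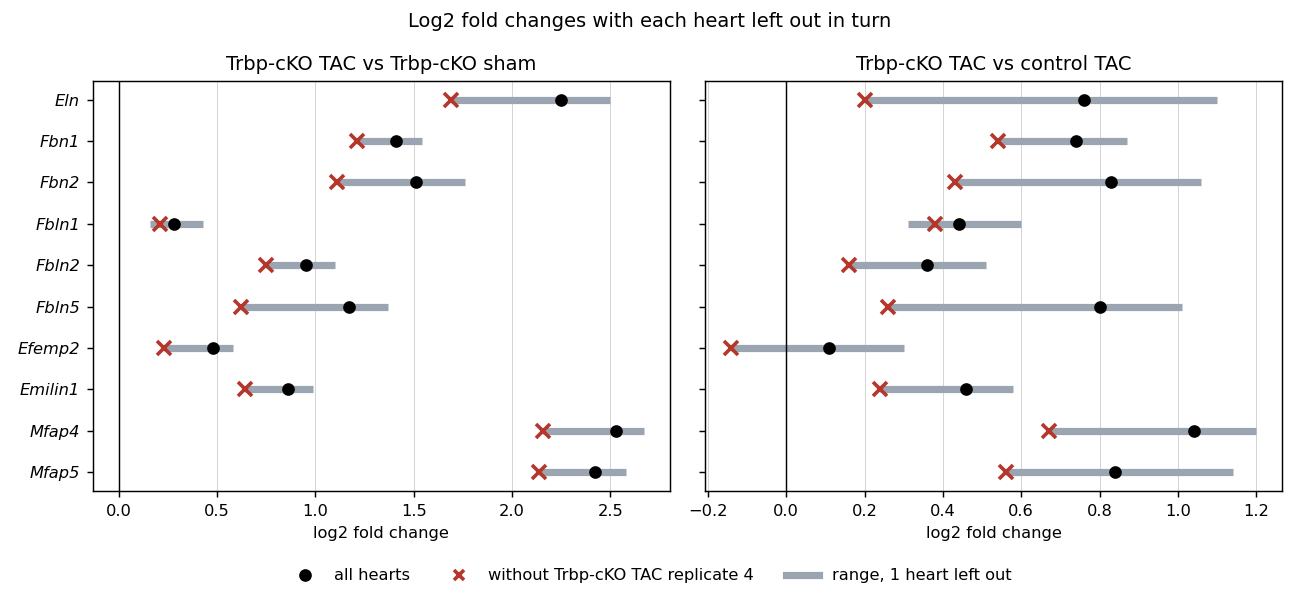
Log2 fold changes of the 10 genes (x axis) for TAC in Trbp-cKO hearts and for the deletion in TAC hearts, with all hearts (dots), without Trbp-cKO TAC replicate 4 (crosses) and over the range with each heart left out in turn (bars). Without that heart 9 of 10 values for the deletion in TAC hearts were above 0, and Efemp2 was at -0.14.

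The genes whose log2 CPM followed a called member most closely were looked up among 12951 genes with a mean log2 CPM of at least 1. For Mfap4 these were Ltbp2, Postn and Cilp (Pearson correlation 0.99 for each), and for Mfap5 they were Piezo2, Fstl1 and Ptgis (0.99 for each). Ltbp2 encodes a latent TGF-β-binding protein of microfibrils, and Postn encodes periostin. Eln was followed by Rai14, Maff and Klc1 (0.97, 0.97 and 0.96), and Fbn1 by Man1a2, Col5a2 and Loxl2 (0.97, 0.96 and 0.96). For Fbln2 the closest were Sulf1, Bgn and Nkd2 (0.98, 0.98 and 0.97), for Fbln5 Plvap, Aspn and Lhfp (0.98, 0.96 and 0.96) and for Emilin1 Hoxd8, Cpne2 and Dok1 (0.97, 0.97 and 0.95). Col5a2, Bgn, Aspn and Loxl2 belong to the collagen matrix or its modification. These correlations are over 16 hearts in 4 groups, so they carry the group differences. Around the group means they were 0.81 to 0.97 for the genes named so far.

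Fbn2 was followed by Clock and Arntl, which encode the activating pair of the circadian clock (CLOCK and BMAL1), and by Ypel2 (Pearson correlations 0.93, 0.88 and 0.83 over the 16 hearts, and 0.79, 0.79 and 0.74 around the group means). Clock was at 40.6 to 48.6 CPM in control sham and 23.1 to 30.6 CPM in Trbp-cKO sham hearts, without overlap. Arntl was at 12.5 to 20.3 CPM in control sham, 2.65 to 8.75 in control TAC and 2.11 to 3.18 CPM in Trbp-cKO sham hearts. In Trbp-cKO TAC hearts Arntl was 3.39, 2.79, 17.9 and 14.9 CPM, and the last 2 of these hearts were also the 2 with the most Fbn2. Clock had log2 fold changes of -0.67 for the deletion in sham hearts (edgeR adjusted p = 0.00817) and 0.89 for the interaction (adjusted p = 0.0154), the same signs as Fbn2. Dbp, a target of the CLOCK and BMAL1 pair, had 2.46 and -2.60 (adjusted p = 0.000793 and 0.00646). Of 8 clock genes looked at, Clock, Arntl, Per3 and Dbp had an adjusted p of at most 0.05 in sham hearts and in the interaction, while Npas2, Per1, Per2 and Nr1d1 did not (adjusted p from 0.0973 to 0.939 in sham hearts and from 0.120 to 0.771 in the interaction). A score of these 8 genes, chosen after their values were seen, was added to the fit as a covariate. The deletion effect on Fbn2 in sham hearts was then -0.08 and the interaction 0.53. Since Clock and Arntl were found by their correlation with Fbn2, that choice favors a smaller Fbn2 effect under this covariate, and these values are a description and not a test. The score itself lay between 1.05 and 2.76 in control sham and between -1.89 and -1.42 in Trbp-cKO sham hearts, so it and the genotype are nearly the same split in sham hearts and cannot be told apart there, nor in the interaction, which uses the same hearts. Eln, which correlated with Clock at 0.61 over the hearts, changed from -0.85 to 0.43 in sham hearts with this covariate, while for Mfap4 and Mfap5 the correlation with Clock was 0.05 and 0.09. Around the group means, the correlation with Clock was highest for Fbn1, at 0.86, above the 0.79 of Fbn2. It was 0.56 to 0.59 for Eln, Fbln5 and Fbln2, 0.41 for Efemp2, 0.35 for Emilin1, 0.27 for Mfap4, 0.14 for Mfap5 and 0.08 for Fbln1.

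**Figure D5:**
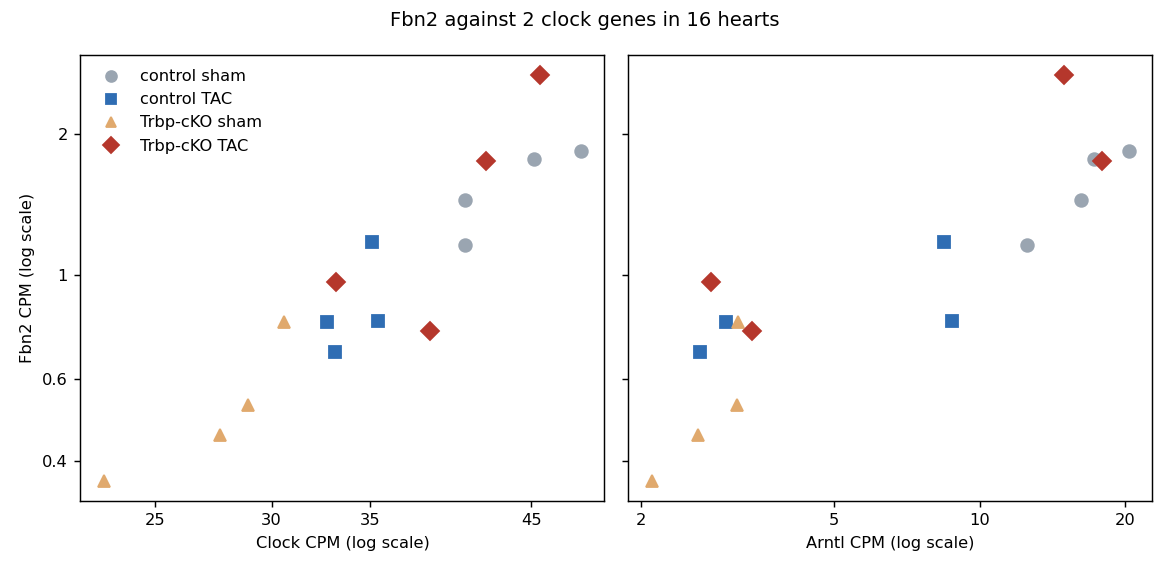
CPM of Fbn2 (y axis, log scale) against CPM of Clock and of Arntl (x axes, log scale) in the 16 hearts, with a symbol for each group. Trbp-cKO sham hearts are at the lower left, control sham hearts at the upper right, and Trbp-cKO TAC hearts divide into a low and a high pair.

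Other genes of elastic fiber biology were taken from lists written for this set. Of the 5 lysyl oxidases, which cross-link elastin and collagen, 0 were called in control TAC against control sham hearts by edgeR's quasi-likelihood test, although all 5 had an unadjusted p under 0.05. Between the TAC groups 3 were called higher in Trbp-cKO hearts (Lox, Loxl2 and Loxl4) and all 5 for TAC within that genotype, where 2.50%, 1.55% and 3.23% of all genes were called higher in the 3 comparisons. Their median log2 fold changes were 0.74, 1.36 and 1.62. Lox rose by 3.59 on the log2 scale in the last comparison, from 4.65 to 55.9 CPM (edgeR adjusted p = 0.000439), and Loxl4 by 1.38, from 1.03 to 2.71 CPM (adjusted p = 0.000206). For TAC in control hearts Loxl4 passed the adjusted p but not the fold change threshold (0.74, edgeR adjusted p = 0.0340). In the interaction 0 of the 5 were called (edgeR adjusted p from 0.116 for Lox to 0.513 for Loxl3). The counts in the 2 genotypes thus do not show that the TAC effects on lysyl oxidases differ. Of the 4 latent TGF-β-binding proteins, Ltbp2 was called higher after TAC in control hearts (3.20, adjusted p = 0.000573) and in Trbp-cKO hearts (3.69, adjusted p = 3.47e-05), and higher by 1.62 between the TAC groups (adjusted p = 0.0191). The median log2 fold change of this list for TAC was 0.63 in control and 0.95 in Trbp-cKO hearts. Ltbp3 rose by 1.20 in Trbp-cKO hearts after TAC (adjusted p = 0.000264). Ltbp2 was at 16.3 CPM in Trbp-cKO sham and 211 CPM in Trbp-cKO TAC hearts.

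Of 17 tested other microfibril and elastic fiber proteins, 2 were called higher and 2 lower after TAC in each genotype. Over all genes tested, 2.50% were called higher and 1.25% lower in control hearts, and 3.23% and 2.34% in Trbp-cKO hearts. The median log2 fold change of this list was 0.17 in control and 0.12 in Trbp-cKO hearts. Efemp1, or fibulin-3, was called lower after TAC in both genotypes. It decreased by 0.96 on the log2 scale in control hearts (adjusted p = 0.0166) and by 2.79 in Trbp-cKO hearts (adjusted p = 3.59e-06), with an interaction of -1.84 (adjusted p = 0.00963). Its mean CPM was 10.9 without and 5.64 with TAC in control mice and 13.7 and 1.96 in Trbp-cKO mice. Fbln7, a further fibulin, rose by 1.71 in Trbp-cKO hearts (adjusted p = 0.0155), from 0.629 to 2.05 CPM. Emilin2, named after its values were seen because it is the closest relative of Emilin1, was lower after TAC in control (-1.46, adjusted p = 0.0304) and Trbp-cKO hearts (-1.45, adjusted p = 0.0195). Adamtsl2, a fibrillin-binding protein, rose by 1.84 and 1.81 (adjusted p = 0.00741 and 0.00277). Thsd4, which promotes fibrillin-1 assembly, was 1.68 higher in Trbp-cKO TAC than in control TAC hearts (edgeR adjusted p = 3.02e-05), at 9.88 against 3.07 CPM. Efemp1 was called lower in that comparison (-1.52, adjusted p = 0.000902), and the list's median log2 fold change there was -0.06. Over all genes, 1.55% were called higher between the TAC groups. The shares of all genes called lower between the TAC groups and in the interaction were not counted.

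Of 7 tested enzymes that degrade elastin or microfibrils, Ctsk (cathepsin K) was called higher in all 4 comparisons, by 1.05 to 1.17 on the log2 scale, while the median of this list lay between -0.02 and 0.70. Over all genes tested, 2.50% and 3.23% were called higher for TAC in control and Trbp-cKO hearts. For the deletion, 0.511% were called higher in sham hearts and 1.55% in TAC hearts. Mmp2 was higher by 1.10 in Trbp-cKO TAC than in control TAC hearts (edgeR adjusted p = 0.0129). Mmp14 was called higher (1.02, edgeR adjusted p = 0.0336) and Mmp9 lower (-1.44, adjusted p = 0.0473) for TAC in Trbp-cKO hearts. In that comparison 2.34% of all genes were called lower. Of 9 receptors and integrin chains, with medians between -0.00 and 0.58 in the same comparisons, Itga5, the fibronectin receptor chain that also binds fibrillin-1, was lower in Trbp-cKO sham than in control sham hearts (-0.83, adjusted p = 0.0446) and rose with TAC in Trbp-cKO hearts (1.13, adjusted p = 0.00170). Its interaction was 1.26 (edgeR adjusted p = 0.0416). Over all genes, 0.456% were called lower for the deletion in sham hearts and 0.446% higher in the interaction. Itgb3 was called higher for TAC in Trbp-cKO hearts (1.51, edgeR adjusted p = 0.0234), as were 3.23% of all genes. Among 8 tested growth factors bound by microfibrils and versican, with medians from 0.02 to 0.79, Tgfb2 rose with TAC by 1.31 in control (adjusted p = 0.000370) and by 2.41 in Trbp-cKO hearts (adjusted p = 7.43e-07), with an interaction of 1.10 (adjusted p = 0.0260). Tgfb3 was 1.72 higher in Trbp-cKO TAC than in control TAC hearts (edgeR adjusted p = 0.000757). The shares of all genes called higher are those given above for the enzymes and, for the interaction, the integrins. Bmp4 was called higher for TAC in control hearts (1.61, edgeR adjusted p = 0.000352) and for the deletion in sham hearts (1.05, adjusted p = 0.0106). For TAC in Trbp-cKO hearts Bmp4 had 0.42 (adjusted p = 0.170), and its interaction was -1.20 (adjusted p = 0.0362). The share of all genes called lower in the interaction was not counted. Vcan, the fibrillin-binding proteoglycan versican, rose with TAC by 1.22 and 1.30 (adjusted p = 0.0132 and 0.00385).

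Reads of a member could be mistaken for those of an overlapping gene, since strand-specific counting is not stated. Fbn1 shares 2442 of its 12128 exon bases with Gm9913 on the other strand, which was at 0.0644 to 0.170 CPM by group mean. Eln shares 267 bases with Gm30003, Efemp2 173 bases with Mus81, Fbn2 129 bases with Gm26507 and Mfap4 89 bases with Mapk7. Mus81 was at 18.8 CPM in control sham and 16.6 CPM in Trbp-cKO sham hearts by group mean, above the 8.87 and 10.1 CPM of Efemp2. Mapk7 was at 9.34 and 11.1 CPM in the same groups, below the 10.1 and 18.5 CPM of Mfap4. Without strand, reads from the shared bases of these pairs cannot be told apart. Apart from these overlaps on the other strand, no 75-base stretch of a member's transcripts was found in the transcripts of another gene, each read in its own direction only.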

How the data were processed

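The authors isolated ventricular RNA with TRIzol, enriched it for polyadenylated transcripts and obtained paired-end reads of 150 bases. Per the labels and methods, cutadapt 2.3 served for trimming, HISAT2 2.1.0 for alignment to GRCm38 and StringTie 1.3.4 for transcript abundance, from which the authors deposited counts per gene, whole numbers without normalization. These counts derive from coverage and an assumed read length, so a fit with counts divided by 2 was among the alternatives. Symbols and exon lengths came from GENCODE M21, which placed 55480 of the 55573 genes.

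For testing, edgeR 4.0.16 was run in R 4.3.3 on the deposited counts. After the filterByExpr filter and TMM scaling, a robust quasi-likelihood model had a term per group over the 16 hearts, and p-values were adjusted by the Benjamini-Hochberg method over the 19955 genes tested. The thresholds were those of the study (0.8 on the absolute log2 fold change, 0.05 on the adjusted p). The study's methods name Fisher's exact test, in place of which edgeR's quasi-likelihood test was used here, and edgeR's exact test was an alternative. CPM of single genes were compared by an exact two-sided permutation test over 70 assignments. The code was tested on simulated data. Alternatives were DESeq2 1.42.0, limma 3.58.1 voom, other filters, scalings and thresholds, the replicate number as a block and each heart left out in turn. The genes named beyond the 10 members are, of each list, up to 4 called genes with the smallest adjusted p, and the 3 genes most correlated with each called member, and exceptions are stated. The members and the lists were chosen with earlier results of these data known. Every library held the heart of a single mouse.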

Additional observations from a re-analysis of the deposited data

Results flagged for a closer look

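Among 40 sets of 4 hearts (10 members in 4 groups), 4 held an outlying heart. Its distance from the nearest of the others, as a share of the range, exceeded Dixon's 95% critical value. For independent sets chance gives about 1 in 20. These sets share hearts, and most members deviated together, so that rate does not judge the count. In Trbp-cKO TAC hearts all of the flagged values were those of replicate 4. Fbln5 was at 107 CPM there against 30.0 to 43.0 CPM in the other 3 hearts, Efemp2 at 20.7 against 11.6 to 12.0 CPM and Mfap4 at 179 against 73.8 to 89.3 CPM. In Trbp-cKO sham hearts, Efemp2 was at 12.0 CPM in replicate 3 against 9.27 to 9.62 CPM.

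The TAC effect on Fbn2 differed between the genotypes by 2.36 on the log2 scale (standard error 0.50, edgeR adjusted p = 0.0364). Its mean was 1.56 CPM in control sham and 0.865 CPM in control TAC hearts. In Trbp-cKO mice it was 0.536 CPM in sham and 1.54 CPM in TAC hearts. As given above, the call was lost with limma voom, with the replicate block and with the score of clock genes. It was also lost when single hearts were left out.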

How the results depend on the processing

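Over 1060 repeats of the members' 50 log2 fold changes under alternative settings other than the fold change threshold, 961 kept their direction and side of the threshold, 47 lost and 19 gained a call, and 33 changed sign. Mfap4 and Mfap5 for TAC kept their calls in both genotypes, except that Mfap5 in control hearts reached an adjusted p of 0.0545 with the score of clock genes, a covariate added after the data were seen. With that score 1 member was called for TAC in control hearts, 3 for TAC in Trbp-cKO hearts, 0 for the deletion in sham hearts and 0 for the interaction, and signs changed for Fbn2 for TAC in control hearts (0.11), for Eln (0.43) and Fbn1 (0.40) for the deletion in sham hearts and for Fbln2 (-0.17), Fbln5 (-0.29), Emilin1 (-0.06) and Mfap4 (-0.36) in the interaction. For the deletion in sham hearts, 0 members were called with library size only, with no filter on low counts and with limma voom, and 3 with a fit of both groups alone and with edgeR's exact test. For the deletion in TAC hearts, library size only called 2 and DESeq2 called 1. The interaction called 0 with limma voom. The replicate numbers did not pair the hearts, since deviations of same-numbered hearts correlated between -0.43 and 0.21 and in 4 of 16 cases (4 numbers in each of 4 comparisons) a heart correlated best with its own number. With the replicate block, the count was 0 for the deletion in sham hearts, 0 for the interaction, 6 for TAC in Trbp-cKO hearts (without Fbln5 and Emilin1) and 3 for TAC in control hearts (with Fbln2). Fbn2 was called lower for TAC in control hearts with edgeR's exact test. Fbn1 for the deletion in sham hearts was 0.07 with library size only. The interaction of Fbln1, -0.01, was 0.05 with library size only, 0.01 with DESeq2, 0.01 with no filter, 0.03 with limma voom and 0.02 with the replicate block. With each heart left out, 2 to 3 members were called for TAC in control, 5 to 8 for TAC in Trbp-cKO, 0 to 0 for the deletion in sham, 0 to 2 for the deletion in TAC hearts and 0 to 1 in the interaction. Over the same repeats Fbn1 ran from -0.16 to 0.09 in sham hearts and Efemp2 from -0.14 to 0.30 in TAC hearts, and the interaction from -0.14 to 0.15 for Fbln1, -0.05 to 0.30 for Fbln2, -0.32 to 0.12 for Efemp2, -0.21 to 0.33 for Mfap4 and -0.01 to 0.58 for Mfap5. The cause of these changes was not tested. Of the members, counting error bears most on Fbn2, with 16 counts in its lowest heart.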
